A study of Mus musculus with 2 samples.

Results

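The 9 genes that set the length, coating and ends of actin filaments were followed on whole molecules in mouse calf muscle: the tropomyosins Tpm1, Tpm2, Tpm3 and Tpm4, the tropomodulins Tmod1, Tmod3 and Tmod4, and the leiomodins Lmod2 and Lmod3. They were chosen by gene symbol, as all count-table entries annotated to these 9 symbols, out of 15324 annotated mouse genes with at least 1 read. Total RNA came from whole gastrocnemius, a limb muscle of mostly fast fibres, of female B6CASTF1/J mice at 36 days of age, with 2 µg of RNA per library and spike-in mixes added. There were 2 libraries, replicate 1 and replicate 2, and no treatment, genotype or other condition separated them. The labels number the females differently but list 1 donor entry for both. The libraries were taken as separate animals, which the labels do not settle. Every comparison below is therefore between 2 libraries of 1 group. With 1 library on each side no residual spread can be estimated, so its p-value covers counting error at most. The reads carry no molecular identifiers and need not come from independent molecules, so even counting error may be understated. The material came from a hybrid of inbred strains, and the reads of the parental alleles were not separated here.

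Tropomyosin is a coiled-coil dimer that lies end to end along the actin filament and, in striated muscle, works with troponin to switch myosin binding with calcium. Each tropomyosin gene makes several proteins from alternative exons: exon 1a opens the long forms and exon 1b the short cytoskeletal forms, exons 6a and 6b replace each other in the middle of the chain, and exon 9a closes the striated muscle forms while exon 9d closes the smooth muscle and cytoskeletal forms. Tropomodulins cap the pointed end of the thin filament, and leiomodins, their relatives, nucleate actin and lengthen filaments from that end. A long read that spans such a transcript shows which first, middle and last exon were joined in 1 molecule, which short fragments cannot show.

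The alternative exons were told apart by the genome coordinates of the deposited models. Exons 6a and 6b have equal length but lie at different positions. The coding sequences below, from the GENCODE M21 transcripts on mm10, are shown to give the difference that the choice of middle exon makes. Capitals mark the bases that differ between 6a and 6b of the same gene, and each sequence runs 5′ to 3′ on the gene's strand.
Tpm1 exon 6a (chr9:67032466-67032541, minus strand): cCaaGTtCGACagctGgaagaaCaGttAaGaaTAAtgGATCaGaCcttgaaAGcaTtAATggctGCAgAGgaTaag
Tpm1 exon 6b (chr9:67031951-67032026, minus strand): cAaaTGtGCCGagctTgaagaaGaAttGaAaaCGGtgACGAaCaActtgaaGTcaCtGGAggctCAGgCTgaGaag
Tpm2 exon 6a (chr4:43519003-43519078, minus strand): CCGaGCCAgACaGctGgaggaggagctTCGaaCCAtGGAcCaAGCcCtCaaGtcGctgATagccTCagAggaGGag
Tpm2 exon 6b (chr4:43518644-43518719, minus strand): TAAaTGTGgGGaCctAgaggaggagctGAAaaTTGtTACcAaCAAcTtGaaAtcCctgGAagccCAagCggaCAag
Tpm3 exon 6a (chr3:90088401-90088476, plus strand): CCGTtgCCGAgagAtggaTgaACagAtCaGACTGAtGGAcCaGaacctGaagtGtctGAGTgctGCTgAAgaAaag
Tpm3 exon 6b (chr3:90089048-90089123, plus strand): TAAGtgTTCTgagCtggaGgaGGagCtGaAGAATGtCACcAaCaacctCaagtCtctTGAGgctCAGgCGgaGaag
All 6 exons were 76 nt long. Exons 6a and 6b differed at 33 bases in Tpm1, 35 in Tpm2 and 37 in Tpm3, an identity of 56.6%, 53.9% and 51.3%. The 6b exons were closer to each other across genes, with 73.7% identity between Tpm1 and Tpm2, 75.0% between Tpm1 and Tpm3 and 76.3% between Tpm2 and Tpm3. The 6a exons were closer across genes too, at 64.5%, 65.8% and 61.8% for the same pairs.

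The ends of the coding sequence are shown for the same reason. Each covers 80 coding bases up to the stop codon, and capitals mark the bases that differ between the ends through 9a and 9d of the same gene. In Tpm1 and Tpm3, exon 9a gives 79 of these bases, at the coordinates printed, and the next exon, 9b, gives the last base, so 9b is an end of mainly untranslated sequence.
Tpm1 exon 9a (chr9:67029664-67029742, minus strand): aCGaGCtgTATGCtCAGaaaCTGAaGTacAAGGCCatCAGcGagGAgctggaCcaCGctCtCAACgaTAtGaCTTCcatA
Tpm1 exon 9d (chr9:67023362-67023441, minus strand): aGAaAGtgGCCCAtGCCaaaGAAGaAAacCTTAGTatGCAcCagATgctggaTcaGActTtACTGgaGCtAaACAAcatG
Tpm2 exon 9a (chr4:43515924-43516003, minus strand): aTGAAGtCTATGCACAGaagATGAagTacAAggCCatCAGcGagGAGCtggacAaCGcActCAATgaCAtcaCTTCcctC
Tpm2 exon 9d (chr4:43514782-43514861, minus strand): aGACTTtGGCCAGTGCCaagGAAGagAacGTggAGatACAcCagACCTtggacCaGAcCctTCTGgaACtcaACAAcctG
Tpm3 exon 9a (chr3:90091013-90091091, plus strand): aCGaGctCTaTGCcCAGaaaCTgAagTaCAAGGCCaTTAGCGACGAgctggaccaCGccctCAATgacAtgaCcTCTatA
Tpm3 exon 9d (chr3:90099528-90099607, plus strand): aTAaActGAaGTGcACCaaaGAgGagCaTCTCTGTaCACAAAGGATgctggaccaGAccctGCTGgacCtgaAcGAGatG
Tpm4 exon 9d (chr8:72151742-72151821, plus strand): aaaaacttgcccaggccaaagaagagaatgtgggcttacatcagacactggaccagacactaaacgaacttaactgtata
The 9a and 9d ends shared 42.5% of bases in Tpm1, 41.3% in Tpm2 and 45.0% in Tpm3. Across genes the 9a ends were far more alike, with 82.5% identity between Tpm1 and Tpm2 and 88.8% between Tpm1 and Tpm3. The 9d ends were more alike across genes too, at 71.3% and 65.0% for the same pairs. Tpm4 is printed without capitals because only its 9d end was compared here, and that end shared 66.3% of bases with the 9d end of Tpm1.

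The libraries differed in depth and in fibre type genes, slow and fast, and a link of the fibre type genes to the members was not tested. Annotated genes held 797105 reads of replicate 1 and 1602272 of replicate 2, so 1 read equals 1.25 and 0.624 CPM, where CPM is a read count divided by the library's reads in annotated genes and scaled up alike for both. Of 8096 genes with at least 10 reads summed over the libraries, 911 (11.3%) differed at an adjusted p under 0.05 (Fisher's exact test, two-sided, Benjamini-Hochberg) and at least 2-fold. All 9 genes of a slow fibre list were among those higher in replicate 2, and their summed levels were 36.4 CPM (replicate 1) and 8274 CPM (replicate 2). Of 12 fast fibre genes, 2 were higher in replicate 2, the fast myosin heavy chains Myh1 (80.3 and 758 CPM) and Myh2 (0 and 554 reads). For Myh2 the ratio was 91.9 with the 0 of replicate 1 set to 3 reads. In the same list 2 were lower, Atp2a1 (110003 and 30171 CPM) and Actn3, and 8 were not called, among them the fast myosin heavy chain Myh4 (18180 and 10939 CPM). Of 5 red blood cell genes, 4 were lower in replicate 2, with a summed level of 2556 and 554 CPM. Skeletal muscle fibre markers were abundant in both libraries, at 218530 and 165954 CPM for 6 genes, and of 3 heart muscle markers only Myh6 had a read, 1 in replicate 2.

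Together the 4 tropomyosins made up 3.14% (replicate 1) and 2.99% (replicate 2) of the reads, at 31401 and 29902 CPM. The 5 tropomodulins and leiomodins together reached only 570 and 607 CPM. Each long read was taken as 1 molecule, so levels of different genes are compared here in CPM without division by length. Whether long cDNAs were read less often was not tested. In order of mean CPM the genes stood as Tpm1, Tpm2, Tpm3, Tmod4, Tmod1, Lmod3, Tpm4, Lmod2 and Tmod3. Tpm1 and then Tpm2 stood first in both libraries. Neighbours whose order changed between the libraries were Tpm3 with Tmod4, Tpm4 with Lmod2, and Lmod2 with Tmod3. In replicate 1 Tpm3 (11.3 CPM) also stood below Tmod1 (212 CPM), Lmod3 (55.2 CPM) and Tpm4 (28.9 CPM). The order of these genes is thus not fixed by 2 libraries.

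**Figure D1:**
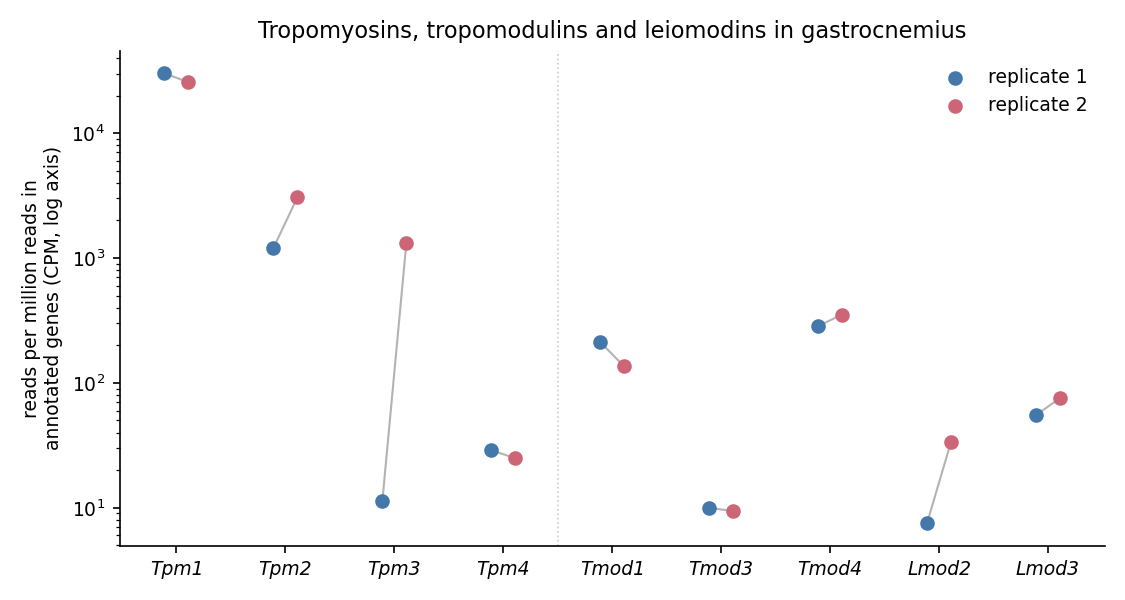
Level of each of the 9 genes in each library, in CPM on a log axis, with a line joining the libraries of a gene and a dotted line between tropomyosins and pointed-end genes. Tpm1 lies above all others in both libraries, at 30159 and 25513 CPM, and the widest gap between libraries is that of Tpm3, at 11.3 and 1308 CPM.

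All 9 genes were tested, and 3 of them, Tpm2, Tpm3 and Lmod2, were called higher in replicate 2, beside 5.78% of all genes tested. None was called lower, beside 5.47% of all genes tested. By Fisher's exact test without adjustment or a fold minimum, 6 of the 9 differed at p under 0.05, beside 30.4% of all genes tested. The median log2 ratio of replicate 2 to replicate 1 was 0.31 over the 9 genes and 0.06 over all genes tested.

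Of 24 other genes of the thin filament and its neighbours, 21 could be tested; 5 were called higher in replicate 2 and 4 lower, and the median log2 ratio was 0.13. The slow troponins Tnnt1 (8.78 and 4320 CPM), Tnni1 (7.53 and 361 CPM) and Tnnc1 (1.25 and 1405 CPM) were higher, with the slow myosin-binding protein Mybpc1 (113 and 431 CPM) and the alpha-actinin Actn2 (226 and 1036 CPM). Of the fast isoforms, Mybpc2 (6775 and 2211 CPM) and Actn3 (9923 and 3491 CPM) were lower, with cardiac actin Actc1 (700.03 and 286 CPM) and Klhl40 (189 and 88.6 CPM), a stabiliser of thin filament proteins. Skeletal actin Acta1 (75111 and 60934 CPM) and fast troponin C, Tnnc2 (42022 and 47756 CPM), the most abundant of the list, were not called. The fast troponins Tnnt3 (3663 and 4177 CPM) and Tnni2 (6778 and 6129 CPM) were not called either. A pair of relatives were close to or at the floor: Tmod2 had no read in either library, which allows up to 3.76 and 1.87 CPM, and Lmod1, the smooth muscle leiomodin, had 2 and 5 reads.

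Tpm1, the fast tropomyosin gene at chr9:67022590-67049406 on the minus strand, was the main tropomyosin in both libraries and was almost a single molecule. It had 24040 and 40878 reads, or 30159 and 25513 CPM. Its level in replicate 2 was 0.846 of that in replicate 1 (exact 95% interval 0.833 to 0.860). The adjusted p was 4.26e-93 by Fisher's exact test, at a difference below the 2-fold minimum. Its share of tropomyosin reads was 96.0% (95.8 to 96.3%) in replicate 1 and 85.3% (85.0 to 85.6%) in replicate 2, so the fraction of the family that was not Tpm1 was larger in replicate 2.

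The molecule that joined exons 1a, 2b, 3, 4, 5, 6b, 7, 8, 9a and 9b, annotated as Tpm1-205, accounted for 22950 and 38564 reads, 95.5% and 94.3% of everything counted for Tpm1. A molecule is called complete here when it starts at an annotated first exon and ends at an annotated last exon and is not a truncated or unspliced model. Among complete Tpm1 molecules the share of that chain was 98.9% in replicate 1 and 98.7% in replicate 2. Although 136 different Tpm1 chains of introns were recorded, 50 of them in both libraries, none but the leading one passed the 5% of reads set for naming a model.

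Each of the 4 alternative exon choices of Tpm1 went almost wholly to the exon held by the leading chain. Exon 1a opened 23220 of 23234 spliced reads in replicate 1 and 39075 of 39088 in replicate 2, at its annotated donor. The cytoskeletal start, exon 1b, opened 1 and 2 reads. Exon 2a, the smooth muscle alternative to 2b, was held by 3 of 23237 and 1 of 39091 informative reads, that is reads that either held the exon or skipped it.

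Exon 6b was in 23658 of 23659 and 40101 of 40106 reads. It was not particular to the striated form, since complete molecules with 2a and 9d (3 and 1 reads) and with 1b and 9d (1 and 1) held it too. Exon 6a was in 3 of 23663 and 2 of 40125 reads, and the 4 complete molecules that held 6a, 2 in each library, held 6b as well. Exon 9a was in 23828 of 23852 reads and 40466 of 40516 reads. Complete molecules that went from exon 8 to 9b without 9a, at their annotated sites, numbered 11 and 27, and those ending in 9d numbered 6 and 4.

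Tpm2, beta-tropomyosin at chr4:43514711-43523765 on the minus strand, is made in both fast and slow fibres and has been linked to nemaline myopathy. It had 958 reads (1202 CPM) in replicate 1 and 4897 reads (3056 CPM) in replicate 2. The level was 2.54-fold higher in replicate 2 (2.37 to 2.73; adjusted p = 3.1e-184, Fisher's exact test). Its share of tropomyosin reads was 3.83% (3.59 to 4.07%) and 10.2% (9.95 to 10.5%), and the intervals did not overlap. The slow fibre genes given above and the fast myosins Myh1 and Myh2 moved with it, and their part in the result was not tested.

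The leading Tpm2 molecule was the same in both libraries. The chain 1a, 2b, 3, 4, 5, 6b, 7, 8 and 9a, annotated as Tpm2-202, had 823 and 3950 reads, 85.9% and 80.7% of all Tpm2 reads and 96.9% and 96.3% of complete molecules. The smooth muscle form was rare and used both of its own exons at once: exon 6a was joined in 1 and 9 complete molecules, and each of these ended in 9d. No complete Tpm2 molecule held 6a with 9a or 6b with 9d. Per informative read, exon 6b was included in 99.9% and 99.7% and exon 6a in 0.112% (0.00284 to 0.623%) and 0.208%. Unspliced reads over Tpm2, counted as Genomic or as truncated single-exon models, were not part of these shares, and the Genomic ones made up 1.77% and 7.29% of its reads.

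A minor start of Tpm2 lay upstream of exon 1a, at shares whose intervals overlapped between the libraries. Molecules with an upstream noncoding exon joined inside exon 1a or just before its labelled start numbered 23 of 856 spliced reads in replicate 1 (2.69%, 1.71 to 4.00%). In replicate 2 they numbered 124 of 4130 (3.00%, 2.50 to 3.57%). The commonest junction ran from an annotated donor at chr4:43523701 to an annotated acceptor at chr4:43523373, in 13 and 76 reads, and the next from the same donor to an unannotated acceptor at chr4:43523421, in 4 and 21 reads. Both acceptors lie before the annotated start codon, by 19 and 67 nt, so the coding part of exon 1a was retained. The joining of this leader to the striated chain 1a to 9a is not in the M21 annotation.

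Tpm3, the slow alpha-tropomyosin gene at chr3:90072649-90100902 on the plus strand, differed most, and the difference was in 1 of its promoters. Its reads numbered 9 and 2096, at 11.3 and 1308 CPM. Replicate 1 had no read that started in exon 1a and replicate 2 had 2010, so the level of this start was 0 (up to 3.76 CPM) and 1254 CPM. Replicate 2 was 333-fold higher when the 0 of replicate 1 was set to 3 reads. The lower end of the exact 95% interval was 271. Exon 1b, downstream of it, opened 9 and 17 reads, 11.3 and 10.6 CPM, a ratio of 0.940 (0.396 to 2.39).

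Exon 1a thus opened 0 of 9 spliced reads in replicate 1 (0 to 33.6%) and 99.1% of 2029 in replicate 2 (98.5 to 99.4%). The gene had fewer than 20 spliced reads in replicate 1, so the shares of its exons were not tested across the table. All 9 slow fibre genes were higher in the same library, including the slow myosin heavy chain Myh7 with 0 and 590 reads and the slow regulatory light chain Myl2 with 0 and 663 reads. The fast myosins Myh1 (64 and 1214 reads) and Myh2 (0 and 554 reads) were higher there too. The part of these genes in the result was not tested. In whole muscle, fewer fibres of a type and less RNA per fibre cannot be told apart.

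**Figure D2:**
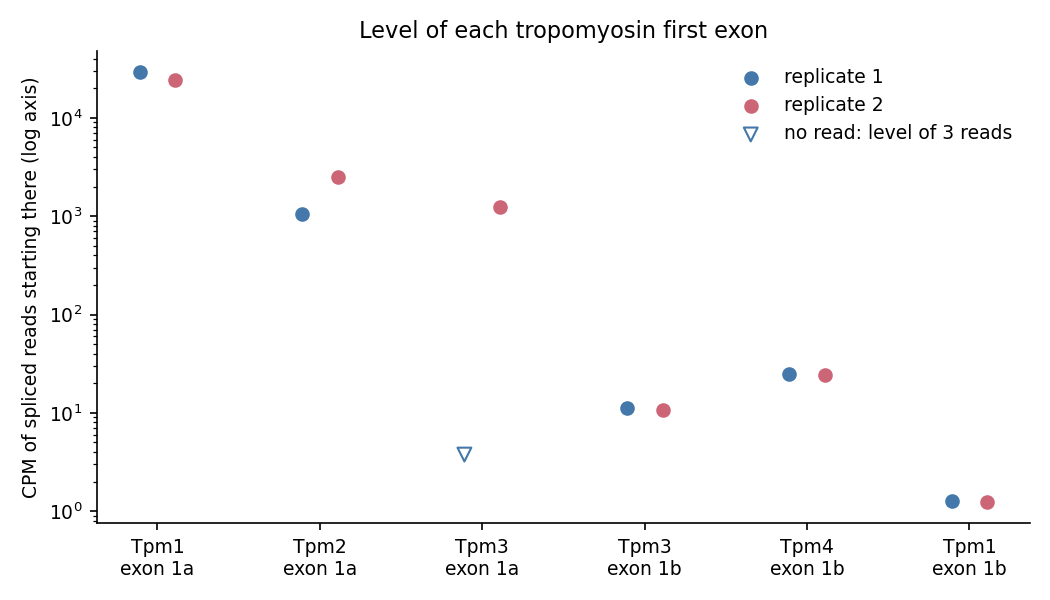
Level of spliced reads opening in each tropomyosin first exon, in CPM on a log axis, per library; the open triangle marks a start without a read, drawn at the level of 3 reads. Only the 1a starts of Tpm2 and Tpm3 lie clearly higher in replicate 2, while the 1b starts of Tpm3 (11.3 and 10.6 CPM) and Tpm4 (25.1 and 24.3 CPM) lie side by side.

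The sequences upstream of both Tpm3 starts are shown because 1 start had no read in replicate 1 and the other had reads in both libraries. They are the 250 bases before the RefSeq start sites (GRCm38.p6, the build also called mm10), with every CANNTG in capitals. CANNTG is the core that myogenic bHLH factors bind, and it reads the same on both strands.
Tpm3 promoter 1a (chr3:90072401-90072650, plus strand): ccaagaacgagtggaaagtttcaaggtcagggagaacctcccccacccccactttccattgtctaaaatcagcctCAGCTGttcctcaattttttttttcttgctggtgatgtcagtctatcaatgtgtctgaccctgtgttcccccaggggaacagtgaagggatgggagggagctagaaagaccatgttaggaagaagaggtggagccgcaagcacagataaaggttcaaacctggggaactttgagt
Tpm3 promoter 1b (chr3:90079271-90079520, plus strand): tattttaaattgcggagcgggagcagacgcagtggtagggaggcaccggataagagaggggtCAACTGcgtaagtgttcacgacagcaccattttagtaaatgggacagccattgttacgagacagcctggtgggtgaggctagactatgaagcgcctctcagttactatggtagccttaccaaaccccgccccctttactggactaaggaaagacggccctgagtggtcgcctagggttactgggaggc
Each window held 1 CANNTG, and 66.2% of all 32851 RefSeq windows of this length held at least 1. The windows differed in CG dinucleotides, with 2 before exon 1a and 11 before exon 1b. As many as 2 were found in 81.2% of all windows and as many as 11 in 35.6%. The RefSeq start for 1a lies 2 bases from the M21 start, at chr3:90072651 and chr3:90072649, while that for 1b lies upstream of the M21 start, at chr3:90079521 and chr3:90079715.

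The first exon of a Tpm3 molecule went with its middle and last exons. Of 1977 complete molecules that opened in 1a, all in replicate 2, 1957 joined 6b to the end 9a with 9b, and 1906 of these matched Tpm3-205 at every splice site. A further 13 joined 1a and 6b to 9a and then 9d. Of complete molecules that opened in 1b, 5 and 9 joined 6a to 9d, 3 and 5 joined 6b to 9d, and 1 and 3 passed through 9a before 9d. No molecule that opened in 1b ended in 9b.

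So the choice of 6a was made by 5 of 9 complete 1b molecules in replicate 1 and 12 of 17 in replicate 2, and by 2 of 1977 complete 1a molecules. In replicate 2 another 22 of 2029 spliced reads (1.08%, 0.681 to 1.64%) joined exons 1a and 2b to unannotated exons inside the intron before exon 3 and ended there, between chr3:90076265 and chr3:90077794. No annotated exon overlaps that stretch. Tpm3-rs7 is a near copy of Tpm3, with 82.0% of its 25-nt words also found in Tpm3, and it had 6 and 5 reads. The counting could have split reads between the copies, so the small 1b count of Tpm3 is uncertain.

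Tpm4, a cytoskeletal tropomyosin at chr8:72134975-72153142 on the plus strand, had 23 and 40 reads, 28.9 and 24.96 CPM. The ratio was 0.865 (0.506 to 1.51), and no difference was detectable at this depth (adjusted p = 0.807, Fisher's exact test). Every complete molecule, 20 and 39, joined exons 1b, 3, 4, 5, 6b, 7, 8 and 9d. A processed pseudogene that shares 55.7% of its 25-nt words with Tpm4, Gm7809, had no read in either library.

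**Figure D3:**
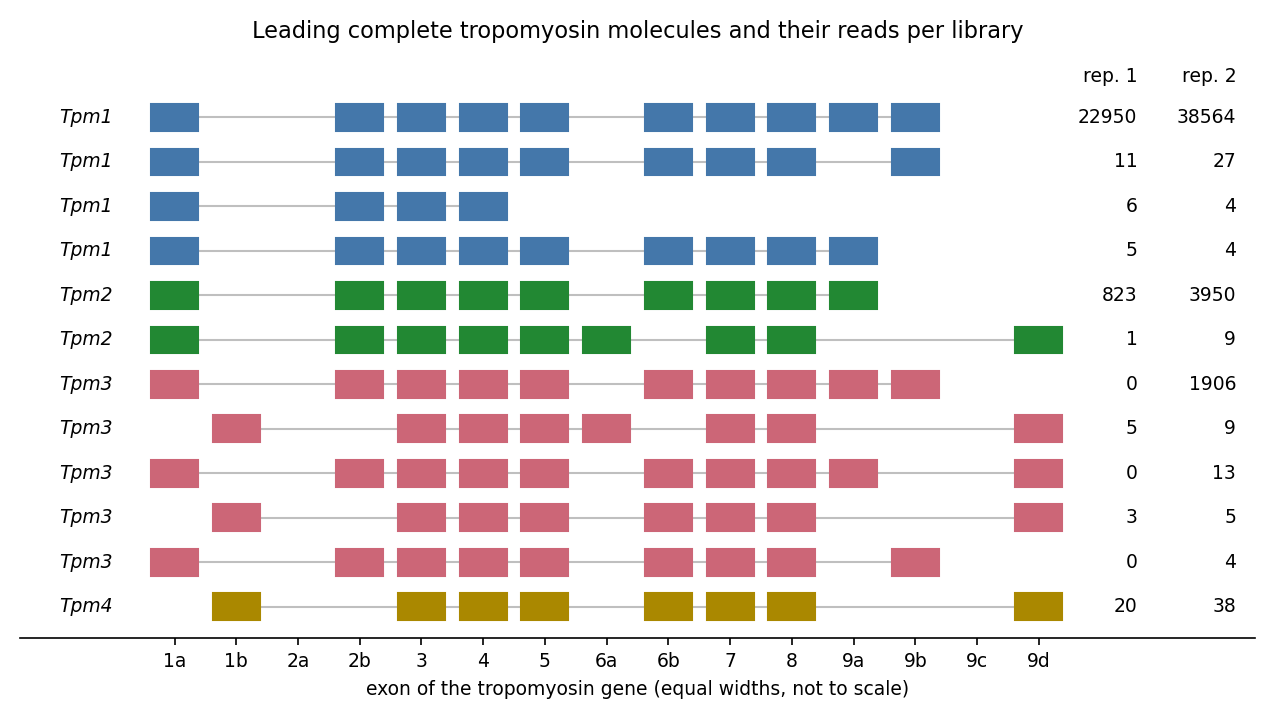
Leading complete tropomyosin molecules whose splice sites all match labelled exons: filled boxes are exons held, drawn at equal width and not to scale, and the numbers at the right are reads in replicate 1 and replicate 2. The striated chains of Tpm1 (22950 and 38564 reads) and Tpm2 (823 and 3950) appear in both libraries, that of Tpm3 only in replicate 2 (0 and 1906), and the 9d chains are rare throughout.

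Summed over the 4 genes, the striated ends and the 9d ends had similar levels in both libraries, from different mixtures of genes. Complete molecules ending in 9a or 9b reached 30168 and 28157 CPM, a ratio of 0.933 (0.919 to 0.948). Of them, Tpm1 gave 96.5% and 86.6%, Tpm2 3.53% and 9.07%, and Tpm3 0% and 4.35%. Complete molecules ending in 9d numbered 36 and 83, or 45.2 and 51.8 CPM, a ratio of 1.15 (0.767 to 1.75).

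The 9d pool was made mainly by Tpm4 (20 and 39 reads) and Tpm3 (9 and 31), with Tpm1 (6 and 4) and Tpm2 (1 and 9). Some of these molecules also held exon 9a before 9d and were counted here as 9d ends. They were 2 Tpm1 reads and 1 Tpm3 read in replicate 1. In replicate 2 they were 13 Tpm3 reads from exon 1a and 3 from exon 1b. By the sequences printed above, Tpm3 exon 9a followed by 9d gives the same last codon and stop codon, TAA, as 9a with 9b. The Tpm3 reads that held both thus carry the 9a coding end, and these pools divide last exons rather than proteins. Molecules opening in 1b, the short forms, numbered 30 and 58, or 37.6 and 36.2 CPM. They were 0.125% and 0.128% of complete tropomyosin molecules. Their ratio was 0.962 (0.609 to 1.55), so no difference in the short forms was detectable at this depth.

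Of 14 genes of the non-muscle actin cytoskeleton, 13 were tested, 2 were called higher in replicate 2 and none lower, with a median log2 ratio of -0.01. The 2 were Myl12a, a regulatory light chain (166 and 787 CPM), and Tmsb4x, an actin-sequestering thymosin (48.9 and 115 CPM). Cytoplasmic actins Actb (96.6 and 72.4 CPM) and Actg1 (115 and 72.4 CPM) were not called.

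No exon choice of the 9 genes was called different between the libraries by Fisher's exact test, the only test run. The thresholds of a call were an adjusted p below 0.05 and a change of 10 percentage points. Of 40 donors of first exons tested none was called, beside 0.32% of all 6553 donors tested. An unadjusted p under 0.05 was found for 1 of them, beside 3.86% of all donors. Of 42 internal exons none was called, beside 0.0497% of 18114, and none had an unadjusted p under 0.05, beside 0.591%. Of 21 acceptors of last exons none was called, beside 0.093% of 3225, and 1 had an unadjusted p under 0.05, beside 2.26%. The exons of Tpm3, Lmod2 and Tmod3 had too few reads in replicate 1 to enter these tests.

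A small shift of the exon 4 acceptor was seen in 3 of the 4 tropomyosins, and it is named here after its values were seen. Reads entered exon 4 2 nt downstream of the annotated acceptor in 124 of 23432 Tpm1 reads in replicate 1 (0.529%, 0.440 to 0.631%) and 149 of 39458 in replicate 2 (0.378%, 0.320 to 0.443%). In Tpm2 the same shift occurred in 4 of 880 (0.455%) and 21 of 4232 (0.496%), and in Tpm3 in 0 of 9 and 10 of 2027 (0.493%). In Tpm4 it was not seen in 21 and 39 reads, which allows a share of up to 14.3% and 7.69%. On its own this shift changes the reading frame. In Tpm3, 9 of 2027 reads of replicate 2 left exon 3 at a donor 2 nt downstream, which was not recorded in the other tropomyosins. Whether these were the Tpm3 reads with the moved exon 4 acceptor was not tested, so the frame of those reads is not known here. In all 4 genes exon 4 starts with AG, the dinucleotide that ends introns, marked in capitals in its first 24 bases.
Tpm1 exon 4 start (chr9:67033970-67033993, minus strand): AGgcatgaaagtcattgaaagccg
Tpm2 exon 4 start (chr4:43519483-43519506, minus strand): AGgaatgaaggtcattgaaaaccg
Tpm3 exon 4 start (chr3:90087455-90087478, plus strand): AGgtatgaaggtgattgaaaatcg
Tpm4 exon 4 start (chr8:72143450-72143473, plus strand): AGgcatgaaggtaatagagaaccg
The exon 4 acceptor shift was the most frequent of the small splice site shifts recorded in Tpm1. Its cause was not tested. The next most frequent in Tpm1 was exit from exon 2b at a donor 4 nt downstream, in 22 of 23339 (0.094%) and 68 of 39292 reads (0.173%). In total 207 and 402 complete Tpm1 molecules followed the leading exon order with a site moved by 30 nt or less, 0.892% and 1.03%.

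Incomplete molecules were few in the tropomyosins and did not start evenly along the chain. Of multi-exon reads, 96.9% and 96.0% were complete for Tpm1, 93.5% and 90.3% for Tpm2 and, in replicate 2, 96.2% for Tpm3. Reads that held only a 3′ part of an annotated Tpm1 chain numbered 715 and 1616. Of these, 22.2% (19.2 to 25.5%) and 33.2% (30.9 to 35.5%) started in exon 5, more than in any other exon in both libraries. In Tpm2 such reads numbered 52 and 405, and 19.2% (9.63 to 32.5%) and 36.5% started in exon 6b. Exon 6b was the most frequent start in replicate 2, while in replicate 1 exons 2b and 3 had 12 reads each (23.1%, 12.5 to 36.8%) and 6b had 10.

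**Figure D4:**
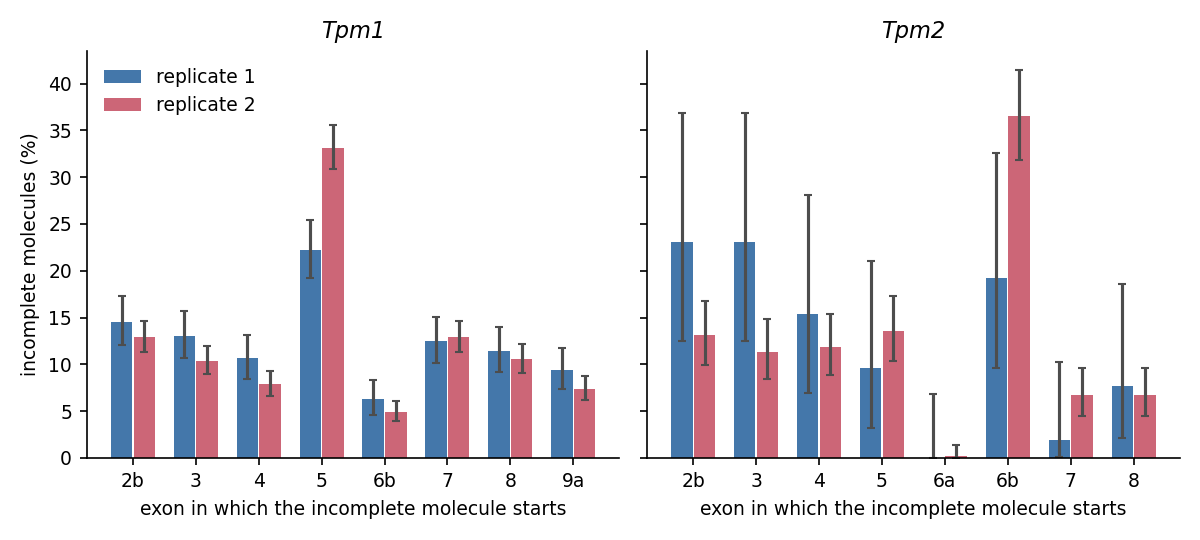
Exon in which molecules holding only a 3′ part of the chain start, as a percentage of such molecules of Tpm1 and of Tpm2 in each library, with exact 95% intervals. In Tpm1 the bars of exon 5 (22.2% and 33.2%) stand above the rest, and in Tpm2 that of exon 6b does in replicate 2 (36.5%), where replicate 1 rests on 52 reads.

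Tmod4, a tropomodulin made mainly in skeletal muscle, at chr3:95124476-95129209 on the plus strand, was the most abundant pointed-end gene in both libraries. It had 227 and 565 reads, 285 and 353 CPM, a ratio of 1.24 (1.06 to 1.45; adjusted p = 0.0355, Fisher's exact test), which is under the 2-fold minimum. It held 227 of 454 tropomodulin and leiomodin reads in replicate 1 and 565 of 972 (58.1%, 55.0 to 61.3%) in replicate 2.

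Its molecules differed mainly in the donor of exon 1, which is noncoding, since the annotated start codon lies in exon 2. The donor of Tmod4-201 at chr3:95124578 was used by 95 of 198 spliced reads in replicate 1 (48.0%) and 251 of 494 in replicate 2 (50.8%). The donor of Tmod4-202, 23 nt downstream, was used by 70 (35.4%) and 180 (36.4%). An unannotated donor 7 nt downstream of the first was used by 14 (7.07%, 3.92 to 11.6%) and 34 (6.88%, 4.81 to 9.49%). None of the 3 shares differed between the libraries beyond counting error, with unadjusted p values of 0.556, 0.861 and 1 by Fisher's exact test. Another 19 (9.60%) and 26 (5.26%) spliced reads left their first exon at donors away from that of exon 1. The commonest of these were an unannotated donor at chr3:95125439 (6 and 11 reads) and the donor of exon 2 (6 and 7 reads).

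Past exon 1 the Tmod4 chain was nearly constant. Exon 7 was included in 98.6% and 98.1% of informative reads, and 5 other internal exons, 2, 3, 4, 6 and 9, were skipped by none. The last exon was entered at its annotated acceptor in 95.5% and 96.0% of spliced reads and at an unannotated acceptor, shifted by -102 nt and so upstream, in 9 (4.55%) and 19 reads (3.85%). The full chains of Tmod4-201 (88 and 229 reads) and Tmod4-202 (64 and 168 reads) were 38.8% and 40.5%, and 28.2% and 29.7%, of all its reads, and the +7 chain (14 and 29 reads) was 6.17% and 5.13%.

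**Figure D5:**
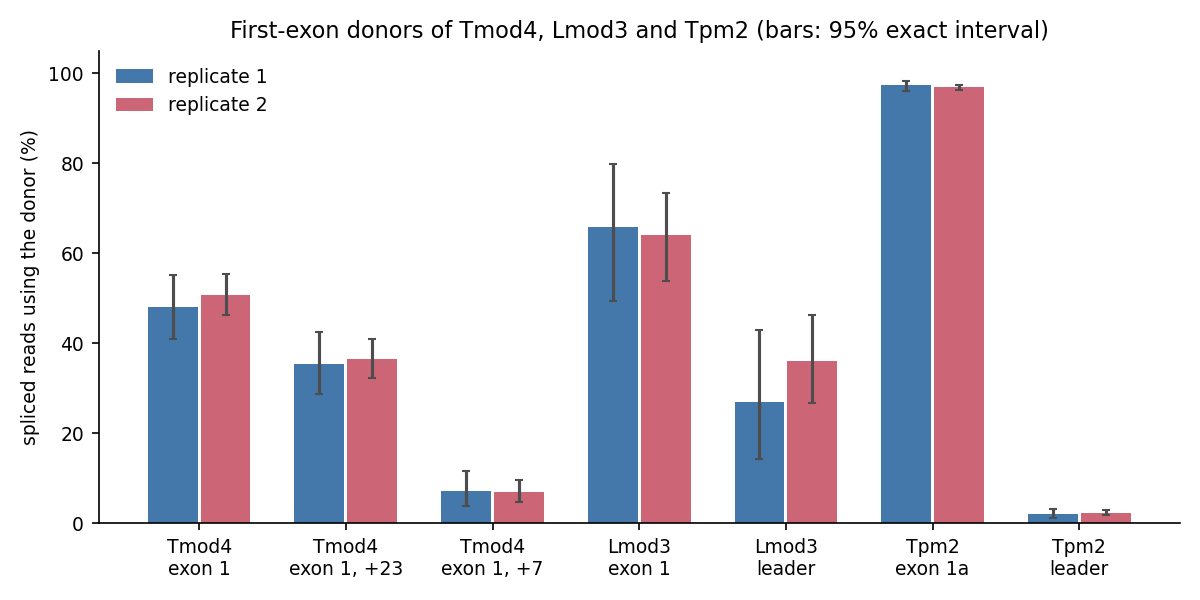
Share of spliced reads that leave the first exon at each donor, in percent with exact 95% intervals, for the 3 donors of Tmod4 exon 1 (offsets in nt), the annotated exon 1 and the upstream leader of Lmod3, and exon 1a and the main upstream leader of Tpm2. Bars of the libraries overlap within their intervals for every donor, at 48.0% and 50.8% for the first Tmod4 donor and 26.8% and 36.0% for the Lmod3 leader.

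Tmod1, a tropomodulin of striated muscle and of the red blood cell membrane skeleton, lies at chr4:46038935-46116032 on the plus strand. It had 169 reads (212 CPM) in replicate 1 and 217 reads (135 CPM) in replicate 2. The level was 1.57-fold lower in replicate 2 (1.27 to 1.92; adjusted p = 0.000223, Fisher's exact test), below the 2-fold minimum. Counted on models that matched an annotated transcript only, it was 2.33-fold lower and was called. Red blood cell genes moved with it, with a summed level of 2556 and 554 CPM and no gene of the 5 at 0, and their part in the result was not tested.

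The reads of Tmod1 differed in kind as well. Genomic models, which here were unspliced, held 30 of 169 reads in replicate 1 and 82 of 217 in replicate 2, 17.8% and 37.8%. Molecules opening in exon 1 were at 156 and 66.8 CPM, a ratio of 0.429 (0.328 to 0.561). Exon 1 opened 96.9% and 94.7% of spliced reads, and the full chain of 10 exons, Tmod1-201, had 121 and 103 reads. All 8 internal exons tested were included in every informative read.

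Tmod3, the tropomodulin of most non-muscle cells at chr9:75497707-75559657 on the minus strand, had 8 and 15 reads, 10.04 and 9.36 CPM. The ratio was 0.933 (0.371 to 2.54), so a difference was not detectable at this depth. In each library 8 reads were spliced and opened in exon 1, 6 of them with the full chain of 10 exons. Of the 15 reads of replicate 2, 6 were unspliced Genomic models and 1 was a truncated single-exon model.

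Lmod3, the skeletal muscle leiomodin at chr6:97238534-97252759 on the minus strand, is known from nemaline myopathy. It had 44 and 121 reads, 55.2 and 75.5 CPM, with a ratio of 1.37 (0.961 to 1.98) that did not pass the test (adjusted p = 0.237, Fisher's exact test). A part of its spliced molecules opened upstream of its only annotated start. In replicate 1, 11 of 41 spliced reads (26.8%, 14.2 to 42.9%) and in replicate 2, 36 of 100 (36.0%, 26.6 to 46.2%) began in an unannotated exon and were joined from chr6:97253035 to chr6:97252595 inside exon 1.

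That acceptor lies 24 nt before the annotated start codon, so the coding part of exon 1 was retained. The leader exon reached from chr6:97253035 up to chr6:97253209, beyond the annotated gene, and no annotated gene on either strand overlapped it. In replicate 1 another 3 reads used the same acceptor from a donor inside exon 1, at chr6:97252706, against none in replicate 2 (unadjusted p = 0.0233, adjusted p = 0.904, Fisher's exact test). Annotated exon 1 opened 27 (65.9%) and 64 (64.0%) spliced reads, and Lmod3-201, its chain of 3 exons, had 27 and 63 reads.

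Lmod2, the leiomodin best known from heart, lies at chr6:24597762-24605414 on the plus strand. It had 6 and 54 reads, 7.53 and 33.7 CPM. The level was 4.48-fold higher in replicate 2 (1.93 to 12.7; adjusted p = 0.000525, Fisher's exact test), and its share of tropomodulin and leiomodin reads was 1.32% (0.487 to 2.85%) and 5.56% (4.20 to 7.19%). The slow fibre genes, Myh1 and Myh2 moved with it, and their part in the result was not tested, while the heart markers Nppa and Myl7 had no read and Myh6 had 1. All 5 and 40 spliced reads opened in its annotated exon 1, and 5 and 38 had its chain of 3 exons at every annotated site.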

How the data were processed

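Whole cDNA molecules of 2 gastrocnemius libraries were read by long-read RNA sequencing. For each library the authors deposited raw read counts per transcript model, with a transcript annotation; per the README beside them, both derive from filtered alignments to mm10 and GENCODE M21. The aligner, with its version, is not given in the sources used here. Model classes are those of the deposited count table, which the transcript numbers of the annotation name as TALON output: Known, ISM (a consecutive part of a known chain), NIC and NNC (unannotated combinations or splice sites), and Genomic.

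Counts of the 58867 and 97558 models were joined to their exon chains by model number, and every model matched. CPM used 797105 and 1602272 reads in annotated genes. The 9 members, the other gene lists and the naming thresholds were chosen with earlier results of these data known. All 9 members were described. First exons, last exons and exons at 1% of informative reads or more, and models at 5% of a gene's reads or more, were to be named; others are named as rare alternatives. Genes with at least 10 summed reads, and donors, exons and acceptors with at least 20 informative reads in each library, were compared with Fisher's exact test (two-sided, scipy 1.17.1), with Benjamini-Hochberg adjustment over each whole table; the tests were tested on simulated data. First and last exons used Known, NIC and NNC models with more than 1 exon, and inclusion used all multi-exon models. A count of 0 was set to 3 reads for a fold. Intervals are Clopper-Pearson 95%. TMM totals (edgeR 4.0.16) and DESeq2 1.42.0 size factors served as other scalings. Tropomyosin exon names follow the usual nomenclature, assigned to M21 transcripts. Of the 9 members, 7 had RefSeq promoter windows.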

Additional observations from a re-analysis of the deposited data

Results flagged for a closer look

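Models on the opposite strand of the members, which no comparison above used, held reads above the 3 that a count of 0 allows. Over Tpm1 there were 30 in replicate 1 and 50 in replicate 2, 0.125% and 0.122% of the reads on its own strand. In replicate 2 there were 23 antisense reads over Tpm3 (1.10% of its sense reads), 12 over Lmod2 (22.2%), 8 over Tmod3 (53.3%), 7 over Tpm2 (0.143%), 7 over Tmod1 (3.23%) and 5 over Tmod4 (0.885%). The 23 reads over Tpm3 were all unspliced and overlapped its exons, and replicate 1 had 3 there. Over all annotated genes, antisense reads came to 2.62% and 5.87% of sense reads, so in replicate 2 the shares of Lmod2 and Tmod3, with 54 and 15 sense reads, lay above it. All 12 antisense reads over Lmod2 overlapped its exons, but only 1 of the 8 over Tmod3 did. The strand setting of the library preparation and counting is not given in the sources used here.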

How the results depend on the processing

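No paired analysis was possible because both libraries belong to 1 group. The calls of Tpm2, Tpm3 and Lmod2 stayed higher in replicate 2 under TMM totals, DESeq2 size factors, Atp2a1 left out of the total, Known models only, models without ISM and Genomic, and no read minimum. Known models only gave 255 genes higher in replicate 2 in place of 468, moved the median log2 ratio of all genes from 0.06 to -0.08, and called 1 member lower (Tmod1), as did the count without ISM and Genomic models (1 member, Tmod1). Without ISM and Genomic models the ratio of Tpm4 turned to 1.08. Donor calls over all genes came to 101 with ISM models and 10 with Known models, in place of 21. Exon calls came to 1 with Known models in place of 9, and last acceptor calls to 6 with ISM models and 0 with Known models in place of 3. No member was called for an exon choice in any of these. Known models exclude unannotated sites by construction, so they put the share of the leading Tpm1 chain at 99.9% of complete molecules and hold no unannotated leader or donor. Without replicate 1 or 2, the Tpm1 share of tropomyosin reads ranged from 85.3% to 96.0%, and the leading Tpm1 chain from 98.7% to 98.9% of complete molecules. A gene or exon comparison between libraries has no value with 1 library left. Depth limits Tmod3, Tpm4, Lmod2 and the 1b start of Tpm3, each with fewer than 25 reads in replicate 1.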

Other observations

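A few rare molecules recurred in both libraries and were chosen after their values were seen. Tpm1 molecules with an unannotated exon between exons 8 and 9b, without 9a, had 7 and 15 reads. Tmod1 molecules that opened in an annotated alternative first exon and went on from exon 4 had 4 and 2 reads. Tmod3-205, which ends after exon 3 in a last exon at chr9:75520900-75521378, had 1 read in each library. Complete Tpm1 molecules that ended in exon 4 at an annotated end had 6 and 4 reads.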
